A study of Caenorhabditis elegans with 4 samples.

Results

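Chromosome IV of Caenorhabditis elegans carried 1021 EFL-1 binding sites, of 5334 in the genome-wide list that the authors made from both ChIP replicates. They are the peaks of that combined list whose chromosome is IV, an assignment that uses position and no measured value. The replicate 1 list held 601 peaks on IV and the replicate 2 list held 877. IV was set against 3757 sites on the other autosomes (I, II, III and V), and within IV the sites were divided by a pair of domains rich in piRNA genes, at 4.5 to 7.0 Mb (domain 1) and at 13.5 to 17.2 Mb (domain 2). Domain 1 held 134 sites, domain 2 held 140 and the rest of IV held 747.

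The study mapped EFL-1 by chromatin immunoprecipitation and sequencing (ChIP-seq) in whole first-stage (L1) hermaphrodite larvae of the N2 strain with a wild-type genotype, grown at 26 degrees C. Its 4 samples are a pair of ChIP replicates and an input DNA sample for each, all from the same kind of larvae, and each ChIP replicate has 1 peak list. The labels disagree on what was precipitated: the protocol describes an anti-GFP antibody against a GFP-tagged factor, while the sample names give N2 and the genotype is wild type, with no tag named. Whole larvae were used, so a weak site in all cells and a strong site in a few cells cannot be told apart.

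EFL-1 belongs to the E2F transcription factors. With its partner DPL-1 and the retinoblastoma-like protein LIN-35 it regulates cell-cycle genes, and in the worm gonad it promotes genes of oocyte and early embryo development. piRNAs are small RNAs of the germline that guide the Argonaute protein PRG-1 to foreign transcripts. In this worm most piRNA genes lie in clusters on chromosome IV, each as a very short transcription unit with its own upstream motif. Newly hatched L1 larvae contain only a pair of primordial germ cells, so nearly all of their nuclei are somatic.

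Each peak has a chromosome, a start and an end on the WormBase WS220 build and a q-value, that is, a p-value adjusted for the number of tests. Strength below means −log10 of that deposited q-value. It mixes enrichment with sequencing depth, and the depth of every library is unknown. Each replicate has 1 list, and 2 unpaired values against 2 allow no exact permutation p below 0.333. Parts of the genome are compared within the same lists, so their values are paired by list, which that limit leaves out. Differences are therefore read within each list or against the spread between the replicate lists, with no test. Calling any pattern particular to IV would need a test. The 95% intervals given with shares were computed by the exact Clopper-Pearson method, and they reflect counting error alone. The files pair no peak with a gene, so sites are named by position.

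The share of sites on IV was 19.1% (18.1 to 20.2) of the combined list, 19.2% of the replicate 1 list and 19.3% of the replicate 2 list, on 17.5% of the genome span. In density that was 58.4 combined peaks per Mb on IV and 57.9 on the other autosomes together. Replicate 1 gave 34.4 peaks per Mb on IV and 34.6 on the other autosomes, and replicate 2 gave 50.2 and 49.4. The means were 42.3 ± 11.2 and 42.0 ± 10.5 (SD, n = 2). These SDs include the larger size of the replicate 2 list, with 4540 peaks against 3126, so IV is compared within each list. There its density as a whole was close to theirs, slightly lower in replicate 1 and slightly higher in replicate 2.

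Median strength was lower on IV than on the other autosomes. Median strength on IV was 11.8 in the combined list, 9.83 in replicate 1 and 11.5 in replicate 2, against 15.4, 13.4 and 14.4 on the other autosomes. The gap lay in the same direction in every list. Over the replicate lists the medians were 10.6 ± 1.2 on IV and 13.9 ± 0.7 on the other autosomes (SD, n = 2). IV was the lowest of the 5 autosomes in both replicates, while in the combined list V was slightly lower at 11.5. Weak sites were numerous: 294 sites, or 28.8% of those on IV, had a combined strength from 2 to 5, against 24.6% on the other autosomes. In the middle of the scale IV had a smaller share, with 31.5% of sites from 10 to 50 and 11.95% from 50 to 100, against 34.6% and 15.4%. At a limit of 150, chosen after the values were seen, it had the larger share of the combined list, with 28 sites or 2.74% at 150 or above, against 1.49%. By the strongest 25% of each whole list the share on IV was 23.9% of sites in the combined list, 26.8% in replicate 1 and 24.3% in replicate 2, against 27.6%, 26.5% and 27.2% on the other autosomes.

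Counts among the strongest peaks were chosen after the values were seen. IV supplied 32 of the 100 strongest combined peaks (32%), 17 of the strongest 50 and 115 of the strongest 500 (23%). The replicate lists differed in this. Among the strongest 50, replicate 1 had 10 IV peaks and replicate 2 had 14, while among the strongest 20 they had 7 and 3. Replicate 1 had 20 IV peaks among its strongest 100 and 46 (18.4%) among its strongest 250, close to the share of IV in that whole list, while replicate 2 had 26 and 63 (25.2%). Of the 32 IV sites among the combined 100, 14 were among the strongest 100 of replicate 1 and 22 among those of replicate 2. Their median rank was 159.5 in replicate 1 and 57.5 in replicate 2 among the peaks of each whole list.

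**Figure D1:**
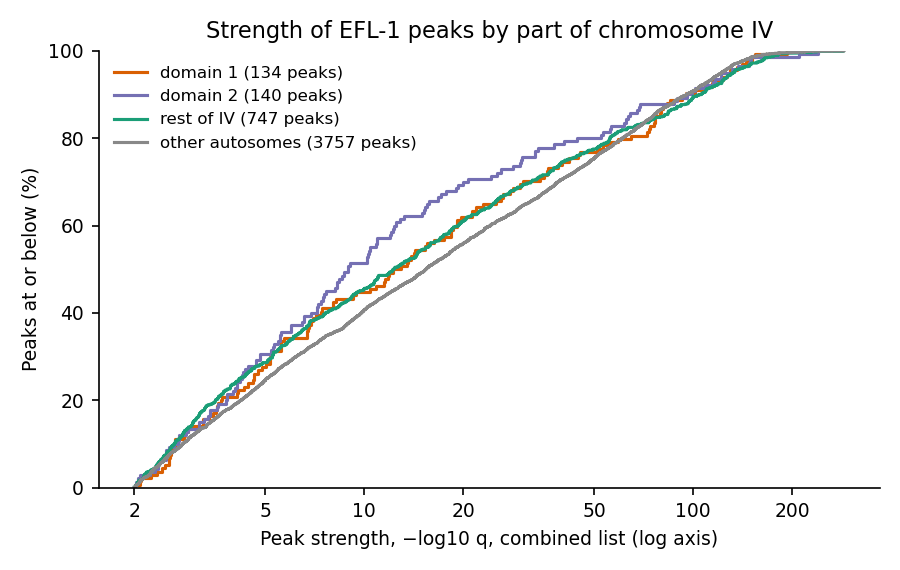
Cumulative share of combined peaks (vertical axis, %) at or below each strength (horizontal axis, −log10 q, log scale) for domain 1, domain 2, the rest of IV and the other autosomes. The curve of domain 2 lies above the others over the middle of the scale, with a median of 8.93, while domain 1 follows the rest of IV closely, with medians of 12.6 and 12.3.

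The arrangement of sites along IV was uneven. Most C. elegans autosomes are described as having gene-rich centres between arms of higher recombination. On IV, the left end (the first 25% of the span) was as dense as the middle (25 to 75%), and the right end (the last 25%) was sparse. The left end held 67.1 combined peaks per Mb, the middle 62.6 and the right end 41.4. In replicate 1 the values were 42.8, 36.6 and 21.5, and in replicate 2 they were 55.9, 53.9 and 37.1. Most of the right end is domain 2 (77.3% to 98.5% of the span), and the middle includes domain 1 (25.8% to 40.1%). These values and those of the domains below therefore share peaks and are not separate observations.

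The other autosomes had a different profile at the left. The ratio of left-end to middle density was 1.10 ± 0.09 on IV, against 0.84 ± 0.05 on I, 0.66 ± 0.04 on V, 0.59 ± 0.07 on II and 0.56 ± 0.02 on III (mean of the replicate lists ± SD, n = 2 each). IV was above 1 in both replicates, at 1.17 and 1.04, and each of the other autosomes was below 1 in both. In bins of 5% of the span, IV was the densest of the 5 autosomes in 4 of its 5 left-end bins in the combined list and in 3 of 5 in each replicate list. It was the densest in none of the 10 middle bins in any list. At the right end the ratio to the middle was 0.64 ± 0.07 on IV, between 0.44 ± 0.05 on V and 0.76 ± 0.01 on I, with III at 0.82 ± 0.01 and II at 1.01 ± 0.03.

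Strong sites followed the same order along IV. A site is called strong here when it lies in the strongest 25% of its whole list, which is a combined strength of 43.9 or more. The left end held 85 strong sites (19.5 per Mb), the middle 123 (14.1 per Mb) and the right end 36 (8.24 per Mb). The replicate lists gave 13.1 and 15.8 strong sites per Mb at the left end, 8.93 and 12.8 in the middle and 5.95 and 7.33 at the right end. On I, the closest in left-end density, strong sites were about as frequent in the left end as in the middle, at 18.7 and 20.97 per Mb in the combined list.

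**Figure D2:**
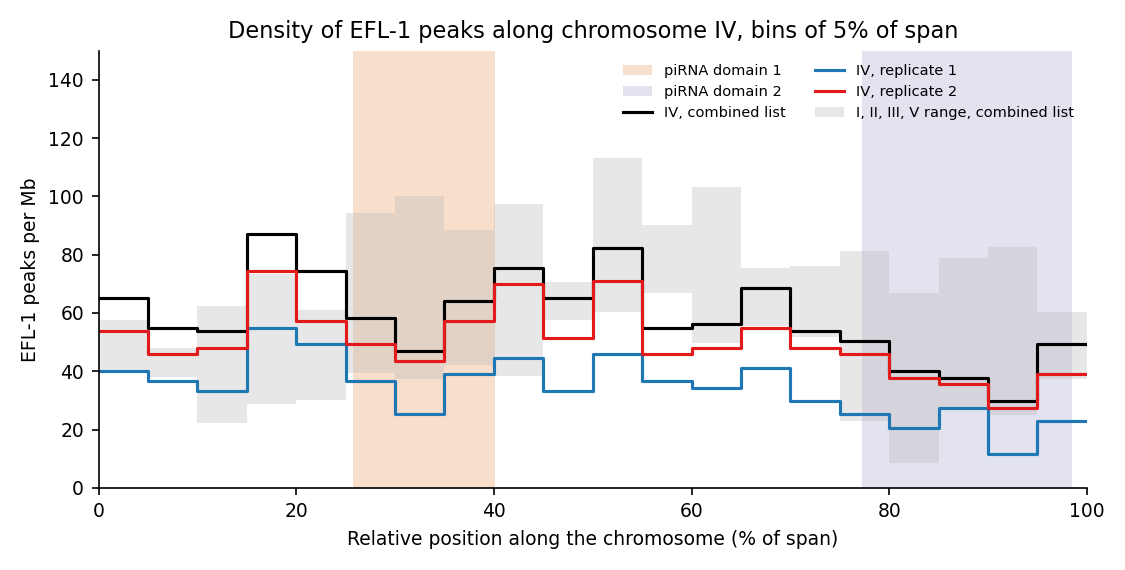
EFL-1 peaks per Mb (vertical axis) in bins of 5% of the span along chromosome IV (horizontal axis, % of span) in the combined list and both replicate lists, with the range of I, II, III and V in the combined list in grey and the piRNA domains shaded. The combined line of IV reaches 87.0 per Mb in the bin from 15% to 20% of the span, above the grey range, and is at 29.8 per Mb in the bin from 90% to 95%.

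The next comparison asked whether the piRNA-rich domains differed from the rest of IV. Both held fewer EFL-1 sites per Mb, domain 2 markedly so. Domain 1 had 53.6 combined peaks per Mb, with 30.8 in replicate 1 and 47.6 in replicate 2, against 66.3, 39.8 and 56.4 on the rest of IV. Its ratio to the rest of IV was 0.81 ± 0.05 over the replicates (SD, n = 2), a shortfall larger than their spread. That spread does not measure how density varies along the chromosome. Domain 2 had 37.8 combined peaks per Mb, with 20.3 in replicate 1 and 33.2 in replicate 2, and its ratio to the rest of IV was 0.55 ± 0.06 (SD, n = 2). Domain 2 thus held 13.7% of IV sites on 21.2% of its span, and domain 1 held 13.1% on 14.3%. Within the rest of IV, the combined list held 68.2 peaks per Mb left of domain 1 and 65.4 between the domains.

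Smaller windows separate the domains further. In windows of 500 kb, the 5 windows of domain 1 held 22 to 37 combined peaks with a median of 25, against 17 to 47 with a median of 33 in the 22 windows of the rest of IV. These ranges overlap, and only 1 domain 1 window was at or above the median of the rest. The 7 windows of domain 2 held 12 to 26 peaks with a median of 19, a range that also overlaps that of the rest of IV. All 7 were below the median of the rest of IV in every list. In the combined list, so were 77 of the 127 windows on the other autosomes, with 37 of the 41 on V. The 4 least dense of the 17 full windows of 1 Mb on IV were the 3 that lie wholly in domain 2, with 40, 31 and 38 peaks, and the window from 10 to 11 Mb, with 46.

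Both domains lie at their own place along the chromosome, so the same relative positions were laid on the other autosomes. At the position of domain 1, which is 25.8% to 40.1% of the span, IV had 0.91 ± 0.04 of the density of its remainder. The matching stretches had 1.09 ± 0.04 on I, 0.98 ± 0.03 on II, 1.29 ± 0.06 on III and 1.06 ± 0.02 on V (replicate means ± SD, n = 2 each). IV had the lowest ratio of the 5 autosomes in each of the 3 lists. At the position of domain 2, 77.3% to 98.5% of the span, IV had 0.57 ± 0.05. V was lower still at 0.46 ± 0.03, while I had 0.86 ± 0.02, III 1.01 ± 0.02 and II 1.06 ± 0.04. A sparse right end was therefore also seen on V. Gene positions were not analysed here.

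**Figure D3:**
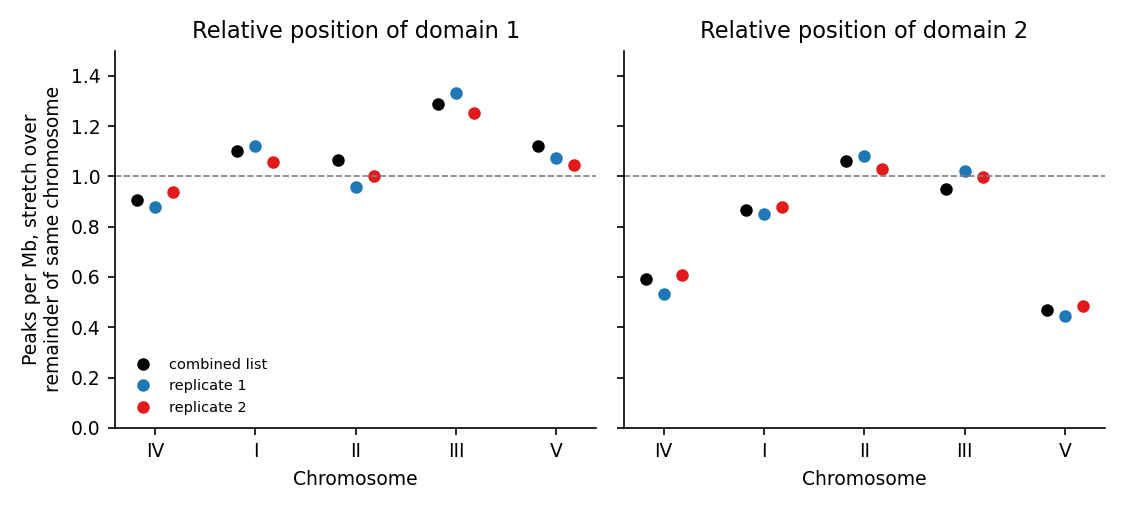
Ratio of peak density in the stretch at the relative position of domain 1 (left) or domain 2 (right) to the remainder of the same chromosome (vertical axis) for IV and the other autosomes (horizontal axis), with 1 point per list. At the position of domain 1, IV is lowest, at 0.88 and 0.94 in the replicates, and at that of domain 2 it lies between V and I.

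In strength, domain 1 lay on neither side of the rest of IV in both replicates, and domain 2 was weaker in both. Domain 1 had a median strength of 10.9 in replicate 1 and 11.2 in replicate 2, against 9.93 and 12.5 on the rest of IV, so the direction differed between replicates. Domain 2 had medians of 7.84 and 7.82, below the rest of IV in both. Within the rest, the medians were 12.6 and 14.8 left of domain 1 and 8.10 and 11.5 between the domains. In replicate 1, domain 2 was thus close to the stretch between the domains. The share of strong sites did not follow the median. It was 28.0% in domain 2 against 25.8% on the rest of IV in replicate 1, but 21.1% against 24.7% in replicate 2, and the intervals of the combined values, 20.7% (14.3 to 28.4) and 24.4% (21.3 to 27.6), overlap. Widths were alike, with combined medians of 458.5 bp in domain 1, 446.5 bp in domain 2 and 431 bp on the rest of IV. Per Mb, the combined list held 7.84 strong sites in domain 2 and 13.2 in domain 1, against 16.2 on the rest of IV. The rest of IV was not uniform in this. In the combined list it had 20 strong sites per Mb left of domain 1 and 13.7 between the domains. Domain 1 was thus close to the stretch between the domains. Replicates 1 and 2 had 13.3 and 16.2 left of domain 1 and 8.15 and 12.5 between the domains. In domain 1 they had 9.6 and 12, so its direction against the stretch between the domains differed between replicates.

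The sparse domain 2 nonetheless contained some of the strongest sites of the chromosome in the combined list. At 2159 bp, the site IV 14032430 to 14034588 reached 239 in the combined list, the second highest strength on IV, with 116 in replicate 1 and 168 in replicate 2. The site at IV 15036680 to 15040306, 3627 bp wide, had 210, 106 and 125 in the same order and was called as 2 separate peaks in each replicate. Another wide site, IV 14069918 to 14072244, lay 35329 bp from the first of these and had 150, 94.3 and 124. Narrower sites at IV 15646301 to 15647047 and IV 15526320 to 15526976 had combined strengths of 149 and 148. All 5 ranked among the 33 strongest combined sites on IV, a limit set by the rank of the last of them, and domain 2 held 13.7% of all IV sites. Among the 100 strongest peaks of each list, domain 2 held 4 of the 32 IV peaks in the combined list. In replicate 1 it held 1 of 20 and in replicate 2 it held 4 of 26.

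In domain 1 the strongest site was IV 6321579 to 6324414, 2836 bp wide, with a combined strength of 193 and replicate strengths of 94.9 and 134. It was called as 2 peaks in each replicate. The sites that followed were less than 1000 bp wide, and their replicate values lay close to the combined one. IV 6206145 to 6206956 had a combined strength of 154 and replicate strengths of 142 and 147. IV 5183357 to 5184288 had 151.0, 149.8 and 150.3, nearly the same value in each list. Among all peaks of a list, IV 5183357 to 5184288 ranked 82 in the combined list, 17 in replicate 1 and 58 in replicate 2. IV 6415025 to 6415664 and IV 6548403 to 6549145 completed the leading 5, with combined strengths of 145 and 140.

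Outside the domains, 12 of the 15 strongest IV sites were found, where 73.2% of all IV sites lay. Of these 12, 7 lay in the first 25% of the span, as did 293 of all 747 sites outside the domains. Neither difference was tested. The strongest of all was IV 3384344 to 3385872, which had a combined strength of 286, with 211 in replicate 1 and 269 in replicate 2. It ranked 2, 3 and 2 in those lists genome-wide. IV 3049795 to 3051291 followed outside the domains with 237, 192 and 257 in the same order, and was the only site of the 15 whose combined strength did not exceed both replicates. IV 991067 to 992764 had 228, 138 and 197. On its left, IV 874462 to 875388 had 180.5, 169.6 and 171.9, and IV 854193 to 854963 had 168, 123 and 155. On its right, IV 1177326 to 1178307 had 171, 128 and 154, and IV 1309401 to 1310736 had a combined strength of 182. These 5 sites are neighbours among the 15.

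Further along, IV 10933014 to 10937341 was the widest site of the chromosome at 4328 bp. Its combined strength was 207, against replicate strengths of 85.9 and 111, and it was divided into 2 peaks in each replicate. IV 8430867 to 8433591 had 191, 92.8 and 150. IV 9403558 to 9404363, IV 11961510 to 11962362 and IV 10696980 to 10698006 had combined strengths of 182, 176 and 175. Replicate 2 was stronger than replicate 1 at all 15 sites, with ranges of 111 to 269 and 85.9 to 211.

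**Figure D4:**
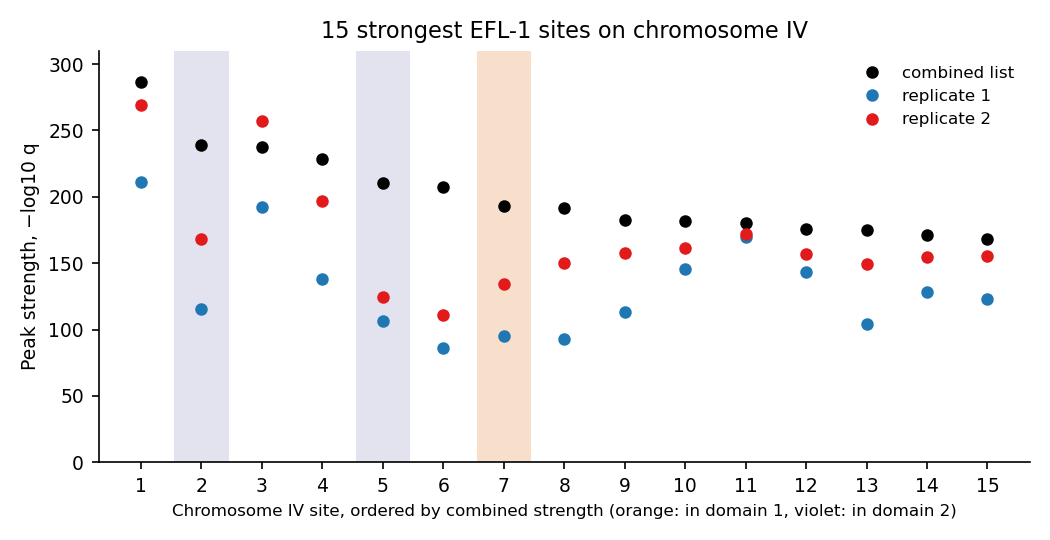
Strength (vertical axis, −log10 q) in the combined list, replicate 1 and replicate 2 of the 15 strongest IV sites found in both replicates (horizontal axis, in order of combined strength), with sites in domain 1 shaded orange and in domain 2 violet. The replicates lie far below the combined value at the wide sites 5 and 6, which had 210 and 207 in the combined list, and close to it at site 11, with 180.5, 169.6 and 171.9.

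Wider sites tended to be stronger. Over all IV sites the combined width ranged from 2 to 4328 bp with a median of 434 bp, and Spearman's rho of width and strength across the 1021 sites was 0.65. The 16 sites of 2000 bp or more, a width class chosen after the values were seen, were all found in both replicate lists. So were 50 of the 56 sites of that width on the other autosomes, and 56.1% of combined peaks of any width. Of the 16, 7 were among the 100 strongest combined peaks, as were 9 of the 56. The 16 IV sites had a median combined strength of 126, with replicate medians of 70.7 and 93.5. The 50 sites of that width on the other autosomes found in both lists had medians of 70.7, 28.8 and 50.6. III came closest, with 98.5, 50.4 and 74.8 over 11 sites. The frequency of such sites was alike, at 1.57% of sites on IV and 1.49% on the other autosomes. Of the 16, 8 were divided into several peaks in at least 1 replicate. A divided site is given here by its strongest piece. The combined strength was a median of 1.41 times that of the stronger replicate at the 16 sites and 1.42 times at the 264 matched sites under 500 bp. The 32 IV sites among the 100 strongest combined peaks had a median width of 949 bp, against 990 bp for the 66 on the other autosomes.

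The widest sites after IV 10933014 to 10937341 were divided as well. IV 4468032 to 4471920, 3889 bp wide and just left of domain 1, was 2 peaks in each replicate and had a combined strength of 135, with 39.5 and 64.5 in the replicates. IV 11954124 to 11957782, 3659 bp wide, was divided in replicate 1 alone and had 83.8, 33.1 and 55.9. In domain 1, the widest sites after the strongest were IV 5753180 to 5754645, with a combined strength of 64.7, and IV 6554974 to 6556277, with 114.

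Close neighbours were somewhat more frequent on IV at 1 kb but not at 10 kb. Of 1021 sites, 255 had another site within 1 kb, or 24.98% (22.3 to 27.7), against 20.2% (18.9 to 21.5) on the other autosomes, where III had 22.5%, V 22.1%, II 19.2% and I 17.0%. At 10 kb the shares were 78.2% on IV and 77.6% on the other autosomes, where III had 83.1%. Chains of peaks less than 1 kb apart held at most 4 peaks on IV and 5 on the other autosomes. The longest chain of combined peaks less than 10 kb apart was on IV, with 13 peaks over 37304 bp at IV 4014493 to 4051796, against at most 12 on the other autosomes. It lies in the window of 100 kb with the most combined peaks on IV, IV 4000001 to 4100000, which held 18, with 13 peaks of replicate 1 and 13 of replicate 2. III also had a window of 18. In the replicate lists another IV window, 2600001 to 2700000, held more, with 15 and 16 peaks, and 16 in the combined list.

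That window mixed strong and weak peaks. Its strengths ranged from 2.14 to 165 with a median of 15.3, and 11 of the 18 were found in both replicate lists. The strongest was IV 4049255 to 4050149, with a combined strength of 165 and replicate strengths of 149 and 157. IV 4042157 to 4042864 was next, with 150, 109 and 140. Gaps between neighbours ran from 258 bp to 33321 bp, with a median of 1535 bp.

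Domain 2 had long empty stretches and also close neighbours, neither of them limited to it. The longest gaps without a combined peak on IV were 200717 bp at IV 16181442 to 16382158 and 198759 bp at IV 15702351 to 15901109, both inside domain 2. The next, 190422 bp at IV 10504535 to 10694956, lay between the domains. On V the longest gap was longer, at 341051 bp. In replicate 1 the 3 longest gaps were all in domain 2, and in replicate 2 the first 2 of 3 were. Yet the median gap in domain 2 was 7438 bp, against 9176 bp in domain 1 and 8000 bp over all IV. Left of domain 1 it was shorter still, at 6079 bp. The replicate lists had 14738 and 8651 bp in domain 2 and 12461 and 8088 bp left of domain 1. Another site within 1 kb was found for 30.0% (22.6 to 38.3) of domain 2 sites and 20.1% (13.7 to 27.9) of domain 1 sites, against 24.9% (21.8 to 28.2) on the rest of IV, so these intervals overlap. A chain of 12 peaks lay at IV 17084239 to 17126838, inside domain 2 near its right border. Its strengths reached 67.3, and 6 of its peaks were in both replicate lists.

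At the left border of domain 1 the first site inside, IV 4506727 to 4506960, had a combined strength of 5.60 and the last outside, IV 4477007 to 4477919, had 15.3. At its right border the last inside, IV 6958726 to 6959042, had 2.65 and the first outside, IV 7012788 to 7013022, had 5.46. For domain 2 the sites at the left border were IV 13500291 to 13500602 inside, with 15.5, and IV 13490072 to 13490193 outside, with 3.06. At the right border they were IV 17126501 to 17126838 inside, with 52.6, and IV 17210757 to 17211070 outside, with 5.09.

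The last comparison asked how well the replicates agreed on IV sites. Of the 1021 combined peaks on IV, 572 or 56.0% (52.9 to 59.1) had a partner in replicate 1 and in replicate 2, against a background of 56.1% over the whole combined list, so IV did not stand apart. A further 287 (28.1%) overlapped replicate 2 only, 11 (1.08%) replicate 1 only and 151 (14.8%) neither. The whole combined list had 27.8%, 1.46% and 14.7% in the same order. All 244 strong sites on IV were in both lists, as were all 1334 strong sites of the whole combined list. The IV peaks found in neither replicate reached at most 5.43, at IV 11819777 to 11820931, against 8.31 on the other autosomes. By part, the share found in both lists was 56.7% in domain 1 and 51.4% in domain 2, against 56.8% on the rest of IV, with overlapping intervals. The 11 peaks found in replicate 1 only all lay on the rest of IV. With 0 of 134 in domain 1 and 0 of 140 in domain 2, shares of up to 2.72% and 2.60% remain possible.

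Between the replicates, 587 of 601 replicate 1 peaks on IV (97.7%, 96.1 to 98.7) overlapped replicate 2. In the other direction, 580 of 877 replicate 2 peaks (66.1%, 62.9 to 69.3) overlapped replicate 1. Over the whole replicate lists these shares were 97.1% and 66.6%. In domain 1 all 77 replicate 1 peaks were found again. In domain 2, 59.3% (50.1 to 68.1) of the 123 replicate 2 peaks were found in replicate 1, against 67.7% (63.9 to 71.3) on the rest of IV. Only 3 replicate 1 peaks and 6 replicate 2 peaks on IV had no combined partner. The strongest of them had a strength of 4.004, at IV 13549275 to 13549669, in replicate 1 and 2.84, at IV 2811450 to 2811474, in replicate 2.

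Strengths at the 579 pairs of matched IV peaks ranked alike, with Spearman's rho of 0.94 across peaks that share the same pair of libraries. Replicate 2 was stronger at 559 of them, and its strength was a median of 1.88 times that of replicate 1, against 1.85 at 2173 pairs on the other autosomes. The ratio shrank with strength, from 2.40 at pairs with a geometric mean strength under 10 to 1.34 at 50 or above. It was 1.63 in domain 1 and 1.72 in domain 2, against 1.99 on the rest of IV. Within the rest it was 1.74 left of domain 1 and 2.22 between the domains. The order of these parts changed with strength. At 50 or above they had 1.22 in domain 1, 1.22 in domain 2, 1.36 left of domain 1 and 1.44 between the domains. From 10 to 50 they had 2.22, 2.17, 2.04 and 2.30 in the same order, and under 10 they had 2.38, 1.95, 2.23 and 2.71.

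**Figure D5:**
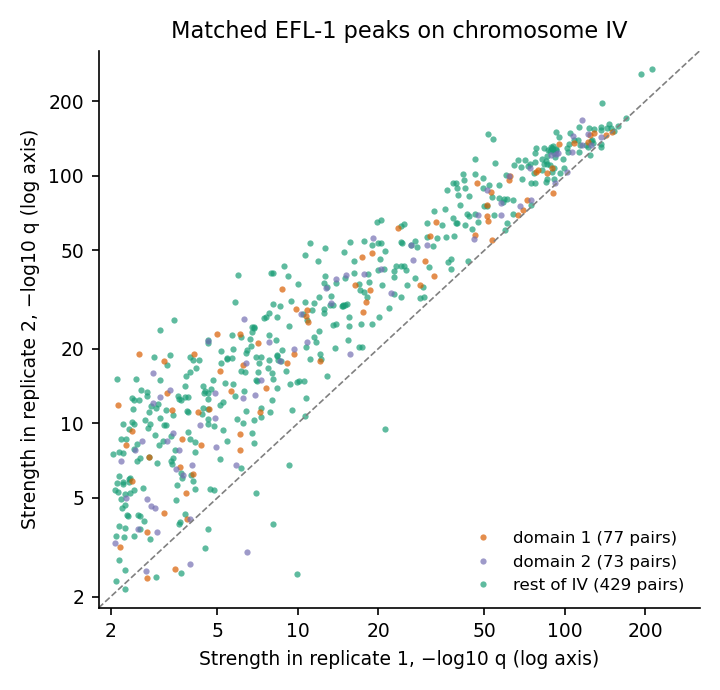
Strength in replicate 1 (horizontal axis) and replicate 2 (vertical axis), both −log10 q on log scales, of the 579 matched IV peaks, coloured by domain 1, domain 2 and the rest of IV. Nearly all points lie above the dashed line of equal strength, and they approach it at the upper end.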

How the data were processed

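Per the file headers, the authors called peaks with PeakSeq on the WormBase WS220 build and deposited a q-value for each peak, none above 0.01. There was 1 list per ChIP replicate and 1 combined list. Read alignment and filtering, and the making of the combined list, are described in none of the sources used here. A lift-over between builds is recorded in the files, and no IV peak carries a comment from it. The input samples come with no peak list, and read depth is unknown.

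Strength (−log10 q) was computed from the deposited values. Peaks were placed by midpoint and matched by an overlap of at least 1 bp, keeping the strongest partner. Pairs were each other's best partner. The span ran to the last peak end in any list. Domain borders were taken as given and applied on WS220. Named sites are the 15 strongest in both lists, the strongest 5 and widest 3 per domain, the widest 3 on IV, the strongest unmatched peaks, border sites, the densest window and the longest gaps. The members, lists and comparisons were chosen with earlier results of these data known. The left end, middle and right end (25%, 50% and 25% of the span), strength and width classes and strongest-peak counts were chosen after the values were seen. The labels do not state separate cultures for the replicates, and their spread may be technical. No genome of the WS220 build was used, so genes, motifs and sequences were not analysed here. Python 3.11.15, pandas 2.3.3 and SciPy 1.17.1 were used, and the scripts were tested on simulated peaks.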

Additional observations from a re-analysis of the deposited data

Results flagged for a closer look

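The ratio of left-end to middle density was 1.10 on IV as the mean of the replicate lists, above 1 in both, while I, II, III and V were below 1 in both. The difference between chromosomes was not tested. The middle of IV includes domain 1, so the result on domain 1 that follows shares its peaks.

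At the relative position of domain 1, the ratio to the remainder of the chromosome was 0.91 on IV, below 1 in both replicates, and I, III and V were above 1 in both. That difference was not tested either. II was at 0.96 and 1.00.

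At the relative position of domain 2 the ratio was 0.57 on IV and below 1 in both replicates, while II was above 1 in both, at 1.08 and 1.03. This was not tested, and V, at 0.46, was lower than IV.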

How the results depend on the processing

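Of 44 alternative values over 12 results, 28 moved by less than the replicate SD or interval, 13 moved by more and 3 changed direction. The share of sites on IV was 19.1%, 18.1% among the stronger 50% of combined peaks, 17.9% with peaks closer than 10 kb counted as 1, 18.5% of covered bases and 19.2% to 19.3% without either replicate. The density ratio of domain 1 to the rest of IV was 0.81 and became 0.72 with borders moved inward by 250 kb. That of domain 2 was 0.57, with 0.44 among the stronger 50% and 0.51 to 0.59 without either replicate. Its direction held in every alternative run, as did that of domain 1. The ratio of median strength in domain 1 to the rest of IV, 1.02, was 0.89 to 1.09 without either replicate and 1.00 (just below 1) among peaks in both lists. Its strong share differed by 0.26 percentage points, or 0.49 to 5.33 without either replicate. For domain 2 that difference was -3.65 points, or -3.59 to 2.16 without either replicate, where replicate 1 alone turned it round. Its width ratio, 1.04, was 1.03 in each replicate and among peaks in both lists. The share of IV peaks in both lists was 56.0%, and 97.1% among the stronger 50%, which by construction leaves out weak peaks. The cause of the other moves was not tested. No paired analysis was possible because neither input sample comes with a peak list. Read depth is unknown, so what it limits was not assessed.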

Other observations

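The stretch of IV right of domain 2 was short. It held 15 combined peaks, of which 4 were in both replicate lists, with a median combined strength of 117, and 10 were in replicate 2 only, with a median of 4.27. Replicate 1 had 5 peaks there and replicate 2 had 14.

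Some IV sites differed sharply between the replicates, and those named here were picked out after their values were seen. Over the 579 matched pairs the ratio of replicate 2 to replicate 1 ranged from 0.25 to 7.80. The first 2 sites named here had 6.65 and 5.11, so they are not the most extreme. IV 2664414 to 2666976, 2563 bp wide, had a strength of 5.998 in replicate 1, where it was divided into 4 peaks, 39.9 in replicate 2 and 73.7 in the combined list. IV 11371616 to 11372041 had 7.94, 40.6 and 46.5. In the other direction, the replicate 1 peak at IV 2607313 to 2607900 had a strength of 9.97, and its replicate 2 partner had 2.46.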
